A study of Mus musculus with 6 samples.

Results

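The livers described here came from the 3 Retnla-non-Tg mice of a series of 6 mouse livers, the animals that carried no Retnla transgene. They were chosen by their sample titles, non-Tg 1, non-Tg 2 and non-Tg 3, and all other arrays were set aside, so no contrast with transgenic livers was made. The mice were non-transgenic C57BL6/J males of 3 months. They were moved to a high-fat diet (HFD) with 21% fat and 0.15% cholesterol at 8 weeks of age and stayed on it for 4 weeks. Lights were on between 7:00 AM and 7:00 PM and food was always available; the hour at which livers were taken is not given in the sources used here. All 3 mice shared the diet, and no liver of a mouse on standard diet was used here, so no value below measures an effect of the diet. The labels describe each array as 1 individual sample, so the mouse was the replicate (n = 3).

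The liver makes most proteins of blood plasma, carries lipids out to the body on apolipoproteins, and converts sugar, fat and amino acids according to feeding state. Hepatocytes account for most of its RNA, with Kupffer cells (its resident macrophages), sinusoidal endothelial cells and stellate cells as the main other types. Transcripts for plasma proteins are known to be abundant in this organ, while those tied to meals, stress hormones and the circadian clock swing within hours.

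RNA was measured on Affymetrix MG 430 2.0 arrays, which hold short probes grouped in probe sets. The values are log2 signals, so a difference of 1 is 2-fold. After 64 control probe sets were set aside, 34945 of the remaining 45037 had exactly 1 gene symbol, 932 had several and 9160 had none. Taking for each gene its brightest probe set gave a value for 18193 genes. Of these, 12682 (69.7%) had a mean signal above the 40th percentile of all probe sets, a log2 signal of 5.67, and their spread was tested. Probe sets bind with different strength, so a rank below orders signals and not amounts of RNA. Below, values of a gene always stand in the order non-Tg 1, non-Tg 2, non-Tg 3.

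The array of non-Tg 1 stood apart from the other 2 by its controls. The log2 signals of bioC, a bacterial transcript added before hybridization, were 10.12, 11.68 and 11.51, and those of bioB were 9.93, 10.69 and 10.50. The signal of the 3′ probe set of beta-actin exceeded that of the 5′ probe set by 0.73, 1.19 and 1.14 log2 units, and for pyruvate carboxylase the excess was 2.95, 3.77 and 3.65. Over all probe sets the arrays correlated almost equally, with Pearson r between 0.888 and 0.891 for the 3 pairs. The counts over all genes and the values of Mt1, Mt2 and Anpep, which were high in non-Tg 1, are therefore given without it as well; the other genes and lists in which non-Tg 1 stood out are given over all 3 mice.

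The signals identified the tissue as liver. All 12 hepatocyte markers with a value passed the signal filter, with a median log2 signal of 15.61 against 7.42 over all genes, and 8 of them were among the 100 brightest genes. Albumin (Alb) measured 16.24, 16.34 and 16.39, and transthyretin (Ttr), the carrier of thyroid hormone and retinol-binding protein, 16.10, 16.30 and 16.15. Carbamoyl-phosphate synthase (Cps1), the entry enzyme of the urea cycle, measured 15.71, 15.75 and 15.75. These 3 markers sat near the top of the scale in every mouse. The arrays matched the label male: the Y-linked genes Eif2s3y (10.41, 10.89, 11.09), Kdm5d (8.90, 8.63, 8.60) and Uty (7.75, 7.56, 7.72) lay above the filter in every mouse, whereas Xist, the RNA of the silenced X chromosome in females, lay below the filter on average at 4.56, 6.29 and 6.11. Retnla, the gene whose transgene these mice lack, was dim at 6.03, 7.41 and 6.48. Its relatives Retn (3.56, 7.08, 4.24) and Retnlb (3.37, 1.73, 2.28) lay below the filter on average. No spread was called for Retnla (limma variance F test, Benjamini-Hochberg adjusted p = 0.993).

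Markers of the other cell types were dimmer, with medians given here as a description, since their ranges overlap and probes of different genes are not on 1 scale. Kupffer cell and macrophage markers had a median log2 signal of 11.16 over 16 genes, led by Csf1r (12.83, 12.64, 12.85), the receptor for macrophage colony-stimulating factor, and Cd5l (12.73, 12.59, 12.86), a protein that macrophages secrete. Sinusoidal endothelial markers had a median of 9.61 over 14 genes, led by the lectin Clec4g (12.26, 11.88, 12.02). Stellate cell and fibroblast markers had a median of 9.25 over 16 genes, led by the matrix proteoglycan decorin (Dcn; 12.72, 12.83, 12.92). The medians of all other cell lists lay lower, at 7.69 for erythroid, 6.86 for B and plasma cell, 6.42 for platelet, 6.40 for pancreatic acinar, 6.37 for cholangiocyte, 6.31 for neutrophil, 6.05 for adipocyte, 5.96 for mesothelial, 5.50 for gallbladder and gut, 5.47 for T and NK cell and 5.13 for muscle markers. Single bright members of those lists are genes that liver cells also express, such as Car3 at a mean of 16.04 in the adipocyte list, Krt8 at 13.10 in the mesothelial list and Fabp2 at 13.49 in the gut list.

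**Figure D1:**
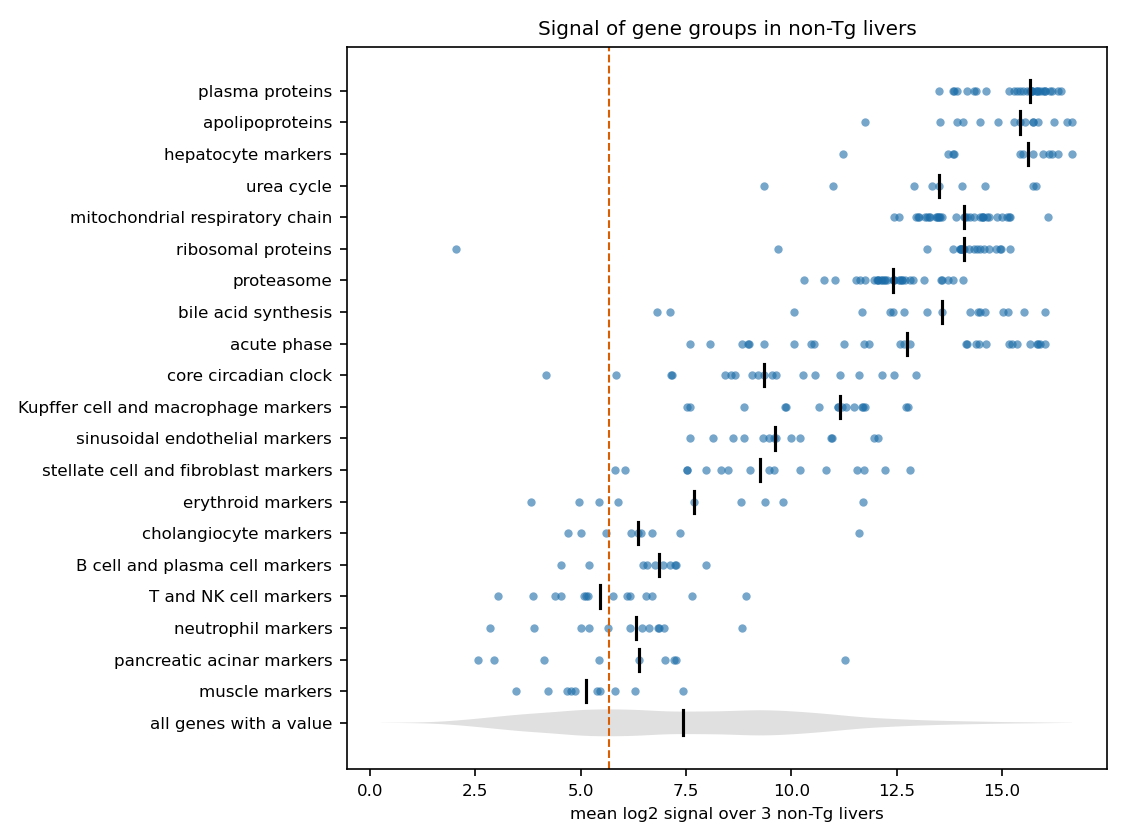
Mean log2 signal over the 3 non-Tg livers for the members of 20 gene groups (points, 1 per gene; black bars, group medians) and for all 18193 genes (grey shape). The dashed line marks the signal filter at 5.67; plasma proteins and apolipoproteins sit at the upper end, and T and NK cell and muscle markers have medians below the line.

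The brightest genes were those of secreted plasma proteins. Of the 30 plasma protein genes with a value, 22 were among the 100 brightest, where 0.550% of all genes with a value stand by definition, and all 30 were among the 1000 brightest. Of 15 apolipoprotein genes, 9 were in the top 100 and 14 in the top 1000, where 5.50% of genes stand. Apoa1, the main protein of high-density lipoprotein, ranked first in each mouse with 16.65, 16.64 and 16.71. Apoa2, its partner on the same particle, ranked second in each mouse with 16.39, 16.59 and 16.60. Apoe, which directs remnant particles to their receptors, measured 16.18, 16.25 and 16.28. The values of each of these 3 genes differed between mice by no more than 1.16-fold.

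Other secreted proteins filled much of the remaining top 25. Serpina1c and Serpina1b, both alpha-1-antitrypsin genes, measured 16.38, 16.42, 16.38 and 16.03, 16.19, 16.20. The fibrinogen chains Fgb (a mean of 16.03, SD 0.06) and Fga (16.07, 15.82, 15.79) stood at ranks 14 and 23, with the third chain Fgg (15.83, 15.90, 15.80) close behind at rank 26. The broad protease inhibitor Pzp measured 15.93, 16.07 and 16.05, the retinol carrier Rbp4 15.96, 15.97 and 15.99, and the selenium carrier Selenop 15.80, 15.99 and 15.94. Fga was highest in non-Tg 1, while Pzp and Selenop were lowest there. The alpha-1-antitrypsin genes are near-identical copies, as are the glutathione transferases Gstp1 and Gstp2 and the major urinary protein genes, so a signal given under 1 of these names can hold RNA of its relatives.

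Metabolic enzymes and lipid-handling proteins made up most of the rest. Fabp1, the fatty acid carrier of the hepatocyte cytoplasm, ranked 3 with 16.29, 16.52 and 16.57. Scd1, the desaturase that makes oleic acid, ranked 9 with 16.09, 16.13 and 16.25. The glutathione transferase signal named Gstp1, higher in male than in female mouse liver, ranked 6 with 16.27, 16.33 and 16.19. Values within each of these genes lay within 1.22-fold. Cyp2e1 (16.01, 16.17, 16.13), an ethanol-oxidizing cytochrome of pericentral hepatocytes, Cyp3a11 (15.85, 16.02, 16.01), a drug-oxidizing cytochrome, and Car3 (15.91, 16.15, 16.05), a carbonic anhydrase, followed. The probe sets of Car3 disagreed: its second gave 14.88, 15.12 and 15.22, but dimmer ones gave 12.40, 12.31, 9.87 and 11.58, 11.70, 8.68, far lowest in non-Tg 3. Scp2 (15.93, 16.05, 16.08) and Acaa1b (15.68, 16.08, 16.05) serve peroxisomal lipid oxidation, Hpd (15.88, 15.94, 15.93) tyrosine breakdown and Mgst1 (15.84, 15.97, 15.99) detoxification. Acaa1b, the most variable in rank of the top 25, stood at rank 41 in non-Tg 1, 15 in non-Tg 2 and 17 in non-Tg 3. The respiratory chain subunits Uqcrb (16.09, 16.10, 16.10) and ND5 (15.85, 15.94, 15.86), the latter encoded by mitochondrial DNA, and the translation-associated Tpt1 (15.85, 15.93, 15.88) completed the 25.

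The order of the brightest genes was stable as a set and loose in detail. Of the 25 brightest genes by mean, 21 were in the top 25 of all 3 mice, as were 89 of the top 100 and 913 of the top 1000 at their own cutoffs. Among the 99 neighbouring pairs in the top 100, however, 98 differed in mean signal by less than the larger SD of the pair, so neighbours cannot be ordered. The 25 had a median SD of 0.08 log2 units and a highest SD of 0.22, that of Acaa1b. Outside them, the major urinary protein gene Mup3, whose product carries pheromones, had the highest SD of the top 100, with 15.50, 15.70 and 16.26, and ranked 58, 49 and 7 in the 3 mice.

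The starts of the brightest genes held a TATA box more often than those of genes in general. Promoter windows from RefSeq (assembly GRCm38.p6), running from 250 bases before to 50 bases after a start, were found for 14452 of the 18193 genes, as 18109 windows. The letters TATAAA, read on both strands, were in 27.4% of the 95 windows of the top 100 genes and in 9.77% of all windows. Counted only where they stood on the gene's strand 20 to 40 bases before the start, they were in 7.37% against 2.25%. Plasma protein genes gave 11.5% of 26 windows at that place, and apolipoprotein genes 6.67% of 15. Windows of 1 gene overlap in part, and these shares are descriptions. The 150 bases before the start of Fabp1 (chr6:71199729-71199878, plus strand) and Cyp2e1 (chr7:140763669-140763818, plus strand) are shown as examples from the top 25, with TATAAA in capitals, 30 and 31 bases before the start.
Fabp1: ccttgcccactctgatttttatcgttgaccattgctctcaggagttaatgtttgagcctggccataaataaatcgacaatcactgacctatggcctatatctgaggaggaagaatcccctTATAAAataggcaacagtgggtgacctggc
Cyp2e1: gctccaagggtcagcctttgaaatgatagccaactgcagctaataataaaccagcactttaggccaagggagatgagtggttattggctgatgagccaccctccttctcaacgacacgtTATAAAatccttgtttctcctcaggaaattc

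Most genes differed little between the 3 mice. The median SD over the 12682 genes was 0.22 log2 units, and the median ratio of the highest to the lowest mouse was 1.34-fold. The spread followed signal: the median SD fell from 0.61 in the dimmest signal decile to 0.10 in the brightest. The highest and lowest mouse differed at least 2-fold in 1896 genes (15.0%), but 1691 of these were among the 4814 genes between the 40th and 70th percentile of signal. Among genes brighter than that band, with log2 signals over 8.07, the count was 205 of 7868 (2.61%). None of the 100 brightest genes and 8 of the 1000 brightest reached 2-fold. Without non-Tg 1 the median SD over the remaining mice was 0.161, and 811 genes reached 2-fold. The corresponding values were 0.182 and 906 without non-Tg 2, and 0.179 and 895 without non-Tg 3.

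**Figure D2:**
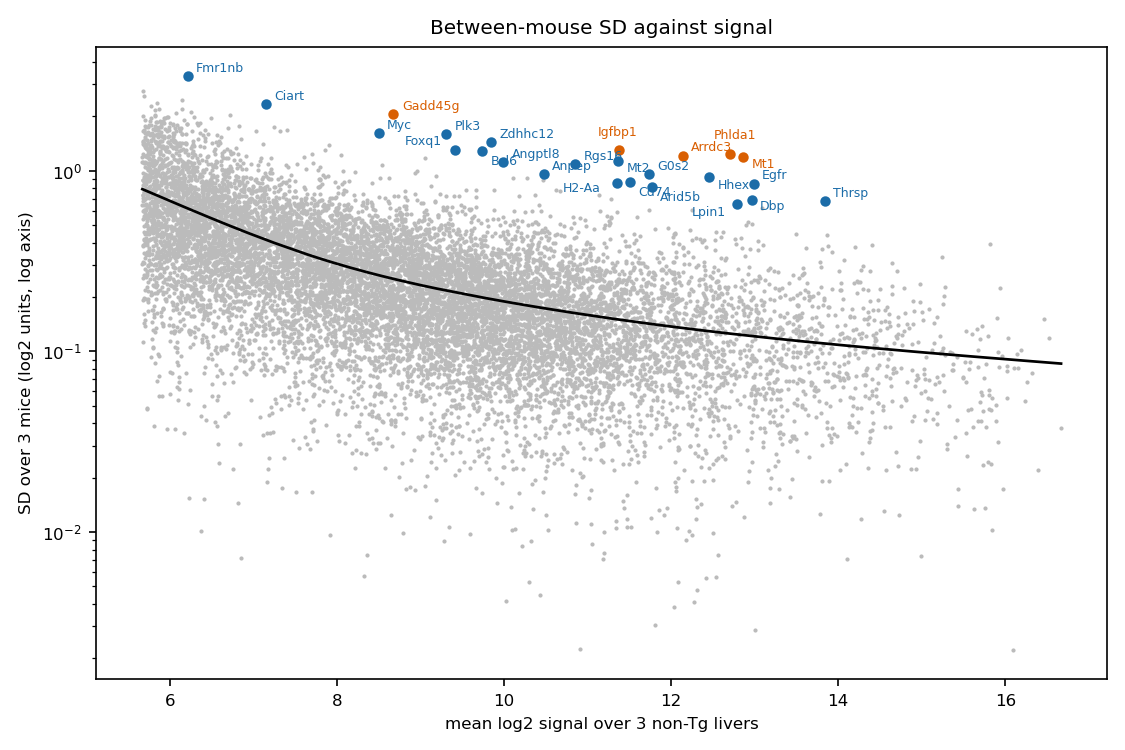
SD over the 3 mice (log axis, log2 units) against mean log2 signal for the 12682 tested genes (grey points), with the spread expected from genes of like signal (black line). The 5 genes that passed the test are orange and 20 further named genes are blue; all lie far above the line, which falls with rising signal.

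To ask which genes spread more than others of like signal, each gene's variance over the 3 mice was divided by the variance the limma model gives to genes of its signal. This variance F test, one-sided with Benjamini-Hochberg adjustment over 12682 genes, called 5 genes at 0.05, which is 0.0394% of those tested. Before adjustment 638 genes (5.03%) had p under 0.05, near the 634.1 that the threshold gives by itself. The 5 genes were Phlda1, Mt1, Arrdc3, Igfbp1 and Gadd45g. With 3 mice, a gene that did not pass is not shown to be steady.

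Phlda1, a small pleckstrin-homology protein induced by growth signals, had log2 signals of 13.32, 11.28 and 13.51, a 4.69-fold range (adjusted p = 0.035). Non-Tg 2 alone was low. Arrdc3, an arrestin-like protein that regulates receptor trafficking, measured 12.39, 13.20 and 10.82 (5.20-fold, adjusted p = 0.038), lowest in non-Tg 3. Igfbp1, a hepatocyte-secreted binding protein of insulin-like growth factors that insulin represses, measured 10.37, 10.91 and 12.84 (5.52-fold, adjusted p = 0.038), with non-Tg 3 alone high. Gadd45g, a stress-induced regulator of growth arrest, measured 8.35, 6.81 and 10.87 (16.7-fold, adjusted p = 0.047), each mouse well apart from the others. Leaving out the mouse farthest from the mean narrows a range by construction, and none of these calls by the limma variance F test held then. Without non-Tg 3 the adjusted p was 0.188 for Arrdc3, 0.886 for Igfbp1 and 0.553 for Gadd45g. The remaining mice differed by 0.81 log2 units for Arrdc3, 0.53 for Igfbp1 and 1.54 for Gadd45g. Without non-Tg 2 the adjusted p was 0.998 for Phlda1, whose other 2 mice differed by 0.19 log2 units.

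The 150 bases before the start of Gadd45g (chr13:51846525-51846674, plus strand) are shown because, of the 4 called genes with a window, it was the one that held TATAAA. Capitals mark TATAAA, 27 bases before the start, and an E-box, CACGTG, 142 bases before it. Among the 24 windows of the 25 genes with the widest spread for their signal, 8.33% held TATAAA and 12.5% an E-box, near the 9.77% and 8.72% of all windows.
Gadd45g: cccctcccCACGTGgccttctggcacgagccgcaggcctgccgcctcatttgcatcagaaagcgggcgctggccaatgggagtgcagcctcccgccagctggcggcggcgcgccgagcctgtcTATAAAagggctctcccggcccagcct

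The metallothionein genes, whose small cysteine-rich products bind zinc and copper, were high in non-Tg 1. Mt1 measured 14.21, 11.97 and 12.40, a 4.72-fold range (limma variance F test, adjusted p = 0.035), and its neighbour Mt2 measured 12.62, 10.43 and 11.05, a 4.56-fold range that did not pass (adjusted p = 0.059). In both genes non-Tg 2 was lowest and non-Tg 3 close above it. Without non-Tg 1, whose array also stood apart in its controls, the adjusted p for Mt1 was 0.708 and its range 0.43 log2 units, and for Mt2 they were 0.590 and 0.62. Whether the array had a part in this was not tested. The Mt1 value came from a probe set of a kind that can detect several related transcripts; the gene's other probe set was dim and flat at 6.96, 6.71 and 6.99 (adjusted p = 0.996 when probe sets of that kind were left out). The other 6 genes of the list, the zinc transporters Slc39a14, Slc39a10, Slc39a4, Slc30a1 and Slc30a10 and the metal-sensing transcription factor Mtf1, had ranges between 1.08-fold and 1.63-fold. Mtf1, which acts on metallothionein promoters, measured 8.49, 8.07 and 8.11.

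The letters TGCNCNC, a loose form of the metal response element, were searched in the same windows on both strands. They are common, with a match in 57.9% of all windows. The 250 bases before the start of Mt2 (chr8:94172368-94172617, plus strand) held 5 matches, in capitals, and 0.431% of all windows held that many before the start. The window of Mt1 held 1 match there, and 50.6% of windows held 1 match or more before the start. Counted over the whole window, past the start too, Mt1 held 3 matches and Mt2 held 6. The stretch is shown because Mt2 and Mt1 had the same order of mice.
Mt2: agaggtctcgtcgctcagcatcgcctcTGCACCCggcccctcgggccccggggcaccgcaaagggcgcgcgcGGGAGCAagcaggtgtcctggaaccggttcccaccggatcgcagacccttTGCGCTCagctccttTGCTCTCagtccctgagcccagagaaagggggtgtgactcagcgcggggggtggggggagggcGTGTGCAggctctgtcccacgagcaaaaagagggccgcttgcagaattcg

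**Figure D3:**
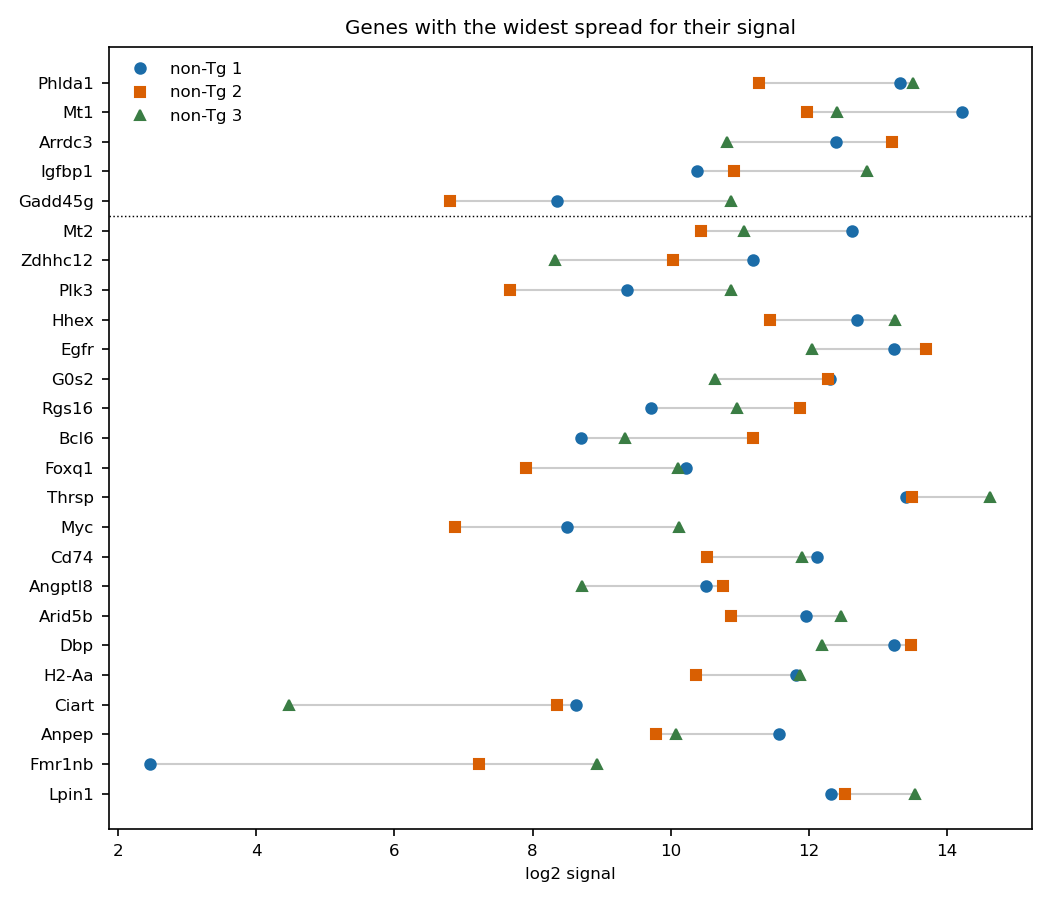
Log2 signal of each of the 3 mice (blue circles, non-Tg 1; orange squares, non-Tg 2; green triangles, non-Tg 3) for the 25 genes with the widest spread for their signal, ordered by p. The 5 genes above the dotted line passed the adjusted threshold; the mouse that stands out changes from gene to gene.

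The next 20 genes by p with at least 2-fold range did not pass. Several were regulators of transcription. Hhex, a homeobox factor of liver development, measured 12.69, 11.44 and 13.24. Foxq1, a forkhead factor, measured 10.22, 7.90 and 10.11, and Arid5b, a chromatin-binding factor, 11.96, 10.87 and 12.47. Non-Tg 2 was lowest for all 3, and also for the growth regulator Myc (8.50, 6.88, 10.11) and the stress kinase Plk3 (9.37, 7.68, 10.88). Bcl6, a repressor of fat-oxidation genes, ran the other way with 8.71, 11.19 and 9.33, as did Rgs16, a brake on G-protein signals, with 9.71, 11.87 and 10.96. Egfr, the epidermal growth factor receptor, was lowest in non-Tg 3 in its brightest probe set with 13.23, 13.69 and 12.04. Its next probe sets disagreed: the second gave 12.42, 12.71 and 11.93, again lowest in non-Tg 3. The third, close to it in signal, gave 12.511, 11.998 and 12.156, lowest in non-Tg 2. Zdhhc12, an enzyme that attaches palmitate to proteins, measured 11.18, 10.03 and 8.32, and Anpep, aminopeptidase N, 11.56, 9.78 and 10.07. Without non-Tg 1, the range of Anpep was 0.29 log2 units. Fmr1nb, a gene best known from testis, measured 2.47, 7.23 and 8.93; its mean of 6.21 was little above the filter. The adjusted p-values of these genes by the limma variance F test ran from 0.059 to 0.174, the highest being that of Lpin1.

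Some genes of the circadian clock differed strongly between the mice and others hardly. Of 18 clock genes above the filter, 6 reached 2-fold (33.3%, against 15.0% of all tested genes) and 5 had unadjusted p under 0.05 (27.8%, against 5.03%), while 0 passed adjustment. Nr1d1 (REV-ERB alpha), a repressor at the core of the clock, measured 10.10, 9.28 and 7.78, a 4.99-fold range. Dbp, an output factor, measured 13.23, 13.48 and 12.18, and Ciart, a repressor of the clock's activators, 8.63, 8.36 and 4.47. Non-Tg 3 was lowest in these 3 genes. Cry2, a repressor subunit, followed with 9.94, 9.32 and 8.80, and so did Bhlhe41 with 6.99, 6.32 and 4.22. Bhlhe41 was dim, with a mean of 5.84. Its other probe set, below the filter, was highest in non-Tg 3 (2.76, 1.55, 2.85). Ciart, with a mean of 7.15, was dim too. Of all tested genes, 58.7% reached 2-fold in the signal decile of Bhlhe41 and 22.9% in that of Ciart. Cry1, the other cryptochrome, was instead highest in non-Tg 3 with 8.21, 7.70 and 9.36. The activators Arntl (7.26, 7.12, 7.12) and Clock (8.67, 8.75, 8.59) lay within 1.11-fold, and Per1 (9.41, 9.12, 9.06), Per2 (9.43, 9.44, 9.76) and Nr1d2 (12.34, 12.55, 12.41) within 1.27-fold. The probe sets of Per3, another repressor subunit, disagreed in size: the brightest gave 8.69, 8.62 and 8.43, and the next, nearly as bright, gave 8.88, 8.87 and 7.86. Non-Tg 3 was lowest in both. Dimmer probe sets of Per2 (8.11, 6.97, 7.17) and of the output factor Tef (8.47, 7.64, 6.98) were highest in non-Tg 1 and spread more than the brightest ones. Dbp was read by a second probe set at 12.62, 12.51 and 11.33, again lowest in non-Tg 3. Npas2 lay below the filter on average, and the remaining clock genes Tef, Hlf, Nfil3, Bhlhe40, Rora and Usp2 ranged from 1.21-fold to 1.53-fold.

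Among the 22 promoter windows of the clock genes, 27.3% held the E-box CACGTG, to which the clock's activators bind, against 8.72% of all windows. They belonged to Bhlhe41, Ciart, Cry1, Per1 and Tef, the last with a pair of windows. Ciart is shown because its window held 3 copies, as many as or more than which were in 0.116% of all windows, and because its signal spread most in the list. The stretch ends 30 bases before the start (chr3:95882258-95882378, minus strand). The E-boxes, in capitals, begin 116, 58 and 44 bases before the start. Cry1 and Ciart both had an E-box and differed in opposite directions between mice, so its presence did not go with 1 order of mice.
Ciart: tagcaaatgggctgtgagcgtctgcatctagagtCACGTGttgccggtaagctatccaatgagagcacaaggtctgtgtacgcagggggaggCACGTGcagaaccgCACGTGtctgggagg

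Among genes that rise in fasting, non-Tg 3 was most often the highest mouse. Of 16 fasting and gluconeogenesis genes above the filter, 10 were highest in non-Tg 3, where 29.8% of all tested genes were highest. In the list 3 genes reached 2-fold (18.8%, against 15.0% of all tested genes) and 6 had unadjusted p under 0.05 (37.5%, against 5.03%). Most tested genes that reached 2-fold were dim, whereas the list had a median log2 signal of 10.94. In the signal decile that holds this median, 1.42% of tested genes reached 2-fold. The genes highest in non-Tg 3 included, besides Igfbp1, G6pc (12.54, 12.69, 13.51), which releases glucose, Pck1 (14.39, 14.03, 14.80), the control point of gluconeogenesis, and Tat (13.74, 13.50, 14.36), a glucocorticoid-induced enzyme of tyrosine breakdown. These 3 genes were 1.71-fold to 1.96-fold apart, and none passed adjustment. A second probe set of Pck1 gave 13.64, 12.36 and 13.79. Trib3, a pseudokinase of the stress response, was lowest in non-Tg 3 (9.07, 9.0, 8.05). In their brightest probe sets, the regulators of this response Irs2 (7.30, 7.13, 7.57), Foxo1 (10.77, 10.82, 11.23) and Ppargc1a (8.10, 7.70, 8.31) were highest in non-Tg 3 by small margins. Their unadjusted p by the limma variance F test was above 0.1. Other probe sets disagreed. For Ppargc1a the next gave 7.57, 8.10 and 6.91, lowest in non-Tg 3, while all dimmer ones were highest there. For Foxo1 the next (10.69, 10.65, 10.87) was highest in non-Tg 3. Its dimmer ones (10.51, 9.93, 10.20 and 5.08, 2.09, 3.96) were highest in non-Tg 1.

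Of the 15 glucocorticoid-induced genes, 9 had unadjusted p under 0.05 (60.0%, against 5.03% of all tested genes) and 6 reached 2-fold (40%, against 15.0%). The first share was the largest of the lists with at least 5 tested genes. Their median SD was 2.82 times that of genes of like signal, against 0.86 over all genes. The list holds Mt1 and Mt2, and its members did not share 1 order of mice. Of the 15, 9 were highest in non-Tg 3 (29.8% of all tested genes were), 5 in non-Tg 1 and 1 in non-Tg 2, and 7 were lowest in non-Tg 2. Dusp1, a phosphatase that quenches stress kinases, measured 10.65, 10.54 and 11.54, and Errfi1, an inhibitor of EGF receptor, 15.05, 14.72 and 15.18. Per1 and Klf9 (13.57, 13.65, 13.36), both targets of the hormone, lay within 1.27-fold.

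Feeding-driven and lipid-storage genes differed in both directions. Thrsp (Spot 14), a lipogenic protein raised by carbohydrate and thyroid hormone, measured 13.41, 13.49 and 14.62, and its second probe set 12.15, 12.45 and 13.81. Lpin1, a phosphatidate phosphatase raised by fasting, measured 12.31, 12.53 and 13.54. Non-Tg 3 was highest for both, by at least 2-fold over the lowest mouse. Angptl8, a feeding-induced secreted regulator of lipoprotein lipase, measured 10.50, 10.76 and 8.71, and G0s2, an inhibitor of the lipase ATGL, 12.30, 12.28 and 10.64. Here non-Tg 3 was alone low. By the limma variance F test the adjusted p was 0.099 for Thrsp, 0.174 for Lpin1, 0.113 for Angptl8 and 0.072 for G0s2. Of 14 lipid droplet and storage genes 6 had unadjusted p under 0.05 (42.9%, against 5.03% of all tested genes). In 9 of them non-Tg 3 was highest, as in 29.8% of all tested genes. Plin2, which coats lipid droplets, measured 13.46, 13.88 and 14.03, Cidec, a droplet-fusion protein, 6.66, 6.73 and 7.99, and Cideb, its hepatocyte relative, 13.50, 13.45 and 13.44. Of 21 lipogenesis genes above the filter, 2 reached 2-fold (9.52%) and 6 had unadjusted p under 0.05 (28.6%). Of 20 cholesterol synthesis genes 0 reached 2-fold and 2 had unadjusted p under 0.05 (10%), where the shares of all tested genes were 15.0% and 5.03%. Fewer tested genes reached 2-fold at the signal of these lists. The share was 0.79% in the signal decile of the lipogenesis median (12.23) and 1.89% in that of the cholesterol synthesis median (9.63). The synthase Hmgcs1 measured 11.91, 12.58 and 11.96, highest in non-Tg 2 in its second probe set too (11.68, 12.30, 11.82).

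**Figure D4:**
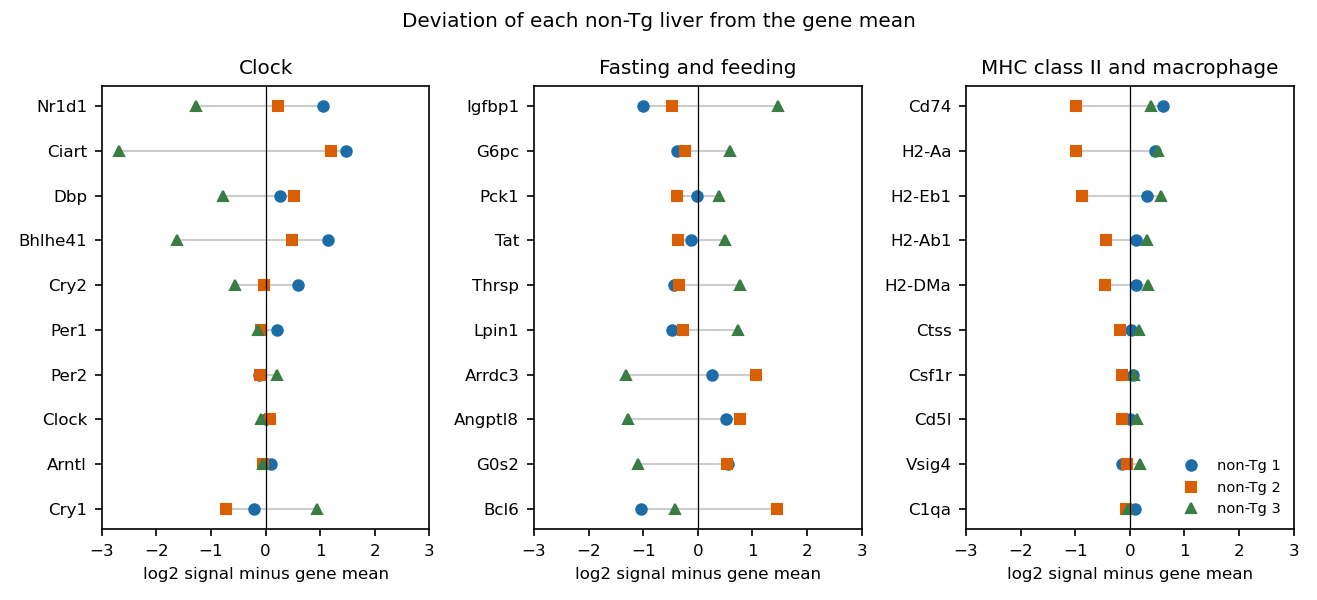
Log2 signal of each mouse minus the gene's mean over the 3 mice, for clock genes, fasting and feeding genes, and MHC class II and macrophage genes. Non-Tg 3 (green triangles) lies to one side for Ciart, Igfbp1, Thrsp, Arrdc3, Angptl8 and G0s2, and non-Tg 2 (orange squares) lies low for Cd74, H2-Aa and H2-Eb1 while macrophage genes cluster near 0.

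Fat oxidation genes were bright. Of 29 targets of the fatty acid sensor PPARA, 20 were in the top 1000. Of these 29, 3 reached 2-fold (10.3%, against 15.0% of all tested genes), and 6 had unadjusted p under 0.05 (20.7%, against 5.03%). The median log2 signal of the list was 13.34, and in the brightest signal decile 0.79% of tested genes reached 2-fold. Ppara itself measured 13.81, 13.71 and 13.78. Vnn1, a pantetheinase, measured 12.36, 12.95 and 13.19, and Acot3, an acyl-CoA thioesterase, 10.72, 9.52 and 10.85. In 16 of the 29 genes non-Tg 1 was lowest, as in 33.5% of all tested genes, and in 17 non-Tg 3 was highest, as in 29.8%.

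MHC class II genes, which present antigen on macrophages, dendritic cells and B cells, were lowest in non-Tg 2. This list was added after the values were seen. Cd74, the invariant chain, measured 12.12, 10.52 and 11.90, H2-Aa 11.81, 10.37 and 11.87, and H2-Eb1 10.97, 9.79 and 11.24. H2-Ab1 (9.85, 9.30, 10.04) had a second probe set at 9.85, 8.63 and 9.93. All 6 genes above the filter were lowest in non-Tg 2, 3 of them by at least 2-fold, and the summed signal of the list was 14814.5, 7643 and 15367. By the limma variance F test 0 passed adjustment, with an adjusted p of 0.113 for Cd74 and 0.130 for H2-Aa. Markers of macrophages moved less, and dendritic cell markers were not examined. The summed signal of the 16 Kupffer cell and macrophage markers was 41065, 37845 and 42268, and that of the 10 B and plasma cell markers was 1350.1, 1191 and 1164. Of the 16 macrophage markers 9 were lowest in non-Tg 2, none reached 2-fold, and Csf1r, Cd5l, Vsig4 (11.55, 11.64, 11.88) and the protease Ctss (11.76, 11.57, 11.91), which is in both lists, lay within 1.26-fold. B and plasma cell markers were dim, and 4 of the 8 above the filter reached 2-fold without a common order: 2 were lowest in non-Tg 2, among them Cd79b, a subunit of the B cell receptor, at 7.64, 6.40 and 7.34. T and NK cell markers had non-Tg 2 lowest in 6 of the 7 above the filter, as in 31.4% of all tested genes, and 5 reached 2-fold (71.4%). Ccl5, a chemokine of those cells, measured 8.13, 5.30 and 6.21. The 14 markers with a value summed to 1687.5, 1079 and 1340.1. They too were dim, with 1 of the 7 at unadjusted p under 0.05. Dim genes often reach 2-fold. The share of tested genes that did so fell from 58.7% in the dimmest signal decile to 22.9% in decile 3. The counts at 2-fold among T, NK and B cell markers are therefore not read as a difference in these cells. In whole tissue, fewer cells of a type and less RNA per cell cannot be told apart. The part of cell number in the MHC class II and T cell values was not tested.

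Fibroblast and stellate cell markers went the opposite way. Of 16, 10 were highest in non-Tg 2 (33.3% of all tested genes were) and 5 reached 2-fold (31.2%, against 15.0%). Their summed signal was 21987, 28663 and 24679.8. Col3a1, a fibrillar collagen, measured 10.48, 11.47 and 10.54, and the receptor Pdgfrb 7.60, 8.96 and 7.36. The 3 unadjusted p-values under 0.05 in the list (18.8%, against 5.03% of all tested genes) did not survive adjustment. Mesothelial markers were also highest in non-Tg 2, in 5 of 6 above the filter. The exception, Upk1b, was lowest there (7.23, 3.67, 6.98), but its other probe sets, below the filter on average, were not. The list had a median of 5.96. Its sums of 16150, 17880 and 13815 came mostly from the keratins Krt8 and Krt18, and liver cells also express Krt8. All 3 muscle markers above the filter were highest in non-Tg 2, with sums of 584, 818 and 368. They were dim, with means of 7.42 for Ckm, 6.29 for Mylpf and 5.81 for Des, which is in the stellate list too. Other probe sets of Ckm (5.28, 2.75, 4.24) and Des (5.97, 5.28, 5.59), below the filter on average, were lowest in non-Tg 2. The part of tissue makeup in the fibroblast values was not tested.

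Respiratory chain genes had the smallest median SD of all the lists. All 33 respiratory chain genes with a value were in the top 1000. Their median SD was 0.06 log2 units, 0.51 times that of genes of like signal, none reached 2-fold, and none had unadjusted p under 0.05. Ribosomal protein genes had a median SD of 0.08 with 0 of 20 at unadjusted p under 0.05, and proteasome genes 0.08 with 1 of 31. The 5 genes of smallest SD in the top 1000 were Uqcrb, Ccs (13.01, 13.01, 13.00), which loads copper into superoxide dismutase, the proteasome subunit Psmd2 (12.42, 12.42, 12.43), Mtpn (12.54, 12.53, 12.54) and Gdi2 (14.10, 14.10, 14.11), a regulator of Rab proteins. Plasma proteins and apolipoproteins had 1 of 30 and 0 of 15 at unadjusted p under 0.05 and median SDs of 0.08 and 0.07. Their median signals, 15.67 and 15.43, lay close to the highest signal of the arrays (16.65, 16.64 and 16.74), and whether differences are compressed there was not tested. In 18 of the 30 plasma protein genes non-Tg 1 was lowest, in 3 non-Tg 2 and in 9 non-Tg 3. The same lean was seen in 21 of 33 respiratory chain genes and 15 of 20 ribosomal protein genes, and the median deviation of non-Tg 1 in the 3 lists was between -0.03 and -0.08. All 3 lists are bright, and the array of non-Tg 1 differed in its controls; the part of the array was not tested.

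Inflammatory and acute-phase genes varied in a few members. Of 28 acute-phase genes 4 had unadjusted p under 0.05 (14.3%, against 5.03% of all tested genes). Hamp, which encodes the iron hormone hepcidin, measured 14.97, 15.61 and 15.14, and its second probe set 14.74, 15.42 and 14.91, highest in non-Tg 2 both times. The serum amyloid genes Saa1 (12.81, 12.70, 12.94), Saa2 (10.70, 10.04, 10.69) and Saa3 (10.87, 10.02, 10.71) were lowest in non-Tg 2, and their near-identical copies can share signal. Haptoglobin (Hp; 15.59, 15.75, 15.67), hemopexin (Hpx; 15.78, 15.84, 15.88) and Orm1 (14.78, 14.56, 14.52) lay within 1.20-fold. Lcn2, an iron-sequestering protein that rises in inflammation, was dim for the list at 9.04, 8.86 and 8.60. Of 26 interferon-stimulated genes none reached 2-fold.

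Stress-response lists differed in which mouse stood out. Of 22 unfolded protein response genes, 5 had unadjusted p under 0.05 (22.7%, against 5.03% of all tested genes). In 11 of them non-Tg 3 was lowest, as in 35.1% of all tested genes. The chaperone Hspa5 measured 14.07, 14.60 and 14.17, the transcription factor Xbp1 13.96, 14.27 and 13.55, and Manf 12.14, 12.44 and 11.56. Xbp1 gave 13.35, 13.85 and 13.25 with its second probe set, in the same order of mice. Of 16 heat shock genes 12 were lowest in non-Tg 1, where 33.5% of all tested genes were lowest; 1 reached 2-fold and 1 had unadjusted p under 0.05. Among the 12 was the inducible chaperone Hspa1b at 8.58, 9.66 and 9.96. The heat shock motif, searched as GAA, TTC and GAA with any 2 bases between them, was in 26.3% of the 19 windows of this list and in 0.525% of all windows. Of 22 immediate early genes 13 were highest in non-Tg 1 (36.9% of all tested genes were) and 13 lowest in non-Tg 2 (31.4%). Unadjusted p was under 0.05 in 5 (22.7%, against 5.03%). Cell cycle genes were dim, with a median of 6.56, and 0 of 18 had unadjusted p under 0.05.

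Liver transcription factors and hormone-axis genes differed between mice in several members. Of 20 liver transcription factors 9 had unadjusted p under 0.05 (45.0%, against 5.03% of all tested genes) and 0 passed adjustment. Their median SD was 1.59 times that of genes of like signal, against 0.86 over all genes. Of the 20, 11 were highest in non-Tg 1, as were 36.9% of all tested genes. In 10 non-Tg 2 was lowest (31.4% of all tested genes) and in 9 non-Tg 3 (35.1%). The array of non-Tg 1 differed in its controls, and its part in this was not tested. Hnf4a, a master factor of hepatocytes, measured 13.74, 13.94 and 13.79. Cebpa, a factor of hepatocyte metabolism, measured 13.93, 13.52 and 13.04, and Nr0b2 (SHP), a bile-acid-induced repressor, 11.56, 11.42 and 10.47. Both were lowest in non-Tg 3. Cish, a growth-hormone-induced inhibitor of STAT5, measured 10.84, 9.22 and 10.78, a 3.06-fold range. Of male-biased genes, Hsd3b5, a steroid reductase, measured 14.04, 14.15 and 13.44, and Elovl3, a fatty acid elongase, 12.07, 12.41 and 11.56. Both were lowest in non-Tg 3, as was Mup10 (13.08, 13.27, 12.32), while Mup3 was highest there. The median log2 signal was 13.60 over the male-biased list and 7.18 over the female-biased one.

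Genes of bile acid, drug and amino acid metabolism were bright, with differences in single enzymes. Of 17 bile acid synthesis genes 1 had unadjusted p under 0.05 (5.88%, near the 5.03% of all tested genes). It was Cyp8b1, the 12-alpha-hydroxylase that sets the share of cholic acid, with 11.91, 12.37 and 12.75. Of 14 bile acid transport genes above the filter 2 had unadjusted p under 0.05 (14.3%, against 5.03% of all tested genes). They were Abcg8, which exports sterols to bile, with 12.94, 12.69 and 12.31, and the organic anion carrier Slco1a4 with 11.24, 10.87 and 11.70, while the uptake carrier Slc10a1 measured 14.87, 14.91 and 15.01. Among 23 genes of drug metabolism Cyp2b10, the classic target of the receptor CAR, measured 10.21, 9.0 and 9.23, and its second probe set 9.63, 8.87 and 9.01. Non-Tg 1 was highest in both. All 9 urea cycle genes lay within the usual spread, with unadjusted p of at least 0.1. Of 28 amino acid breakdown genes 25 were in the top 1000 and 7 had unadjusted p under 0.05. Got1, an aminotransferase, measured 13.54, 12.60 and 12.76, highest in non-Tg 1.

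A second probe set of the same gene gave a check that the first had not used. Of 5759 genes with a second probe set above the filter, 41.1% had the highest signal in the same mouse in both, where the shares of the mice alone would give 33.3%, and the deviations correlated with r = 0.15 across genes. Among the 387 genes with at least 2-fold range the share was 44.7%. Among the 49 of these whose both probe sets lay above the 70th percentile it was 75.5%, with r = 0.72. Probe sets of a gene share the array and the RNA, so the correlation describes these 3 livers. Among the 25 genes with widest spread, Egfr (12.42, 12.71, 11.93), Rgs16 (9.25, 11.19, 10.81), Bcl6 (7.39, 9.02, 7.74), Arid5b (9.86, 8.95, 10.07) and Foxq1 (8.49, 6.94, 9.40) had the same lowest mouse in the second probe set as in the first. These genes are examples, scored by the lowest mouse and not by the highest as above. The third probe set of Egfr, close to its second in signal, was instead lowest in non-Tg 2. The highest mouse of Foxq1 was non-Tg 1 in the first probe set and non-Tg 3 in the second. That of Mt1 differed too, and its second probe set was flat at 6.96, 6.71 and 6.99.

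**Figure D5:**
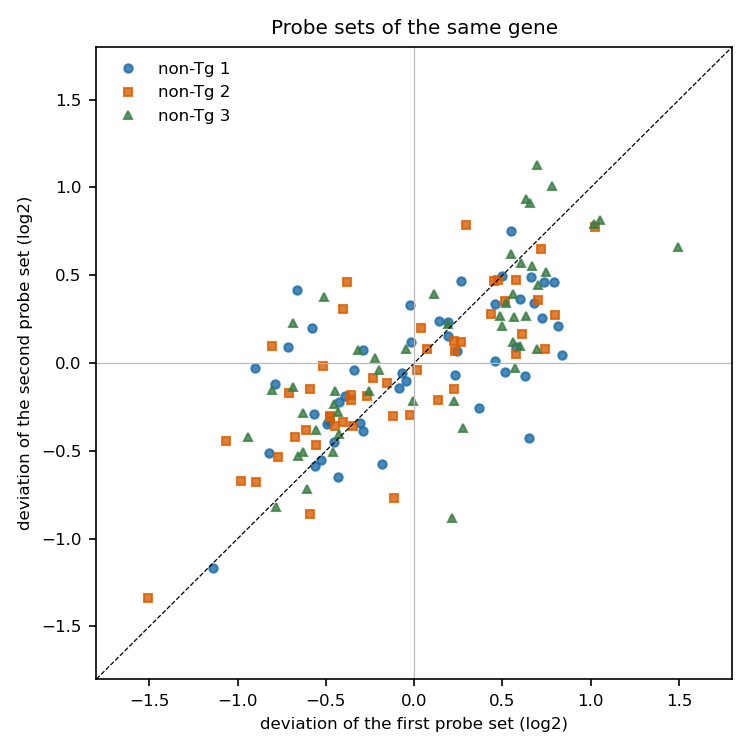
Deviation of each mouse from the gene mean (log2 units) in the brightest probe set (horizontal axis) and the second probe set (vertical axis) of 49 genes with at least 2-fold range and both probe sets above a log2 signal of 8.07; 3 points per gene, dashed line at equality. Most points lie in the lower left and upper right, and the second probe set's deviations are on the whole smaller.

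In which mouse a bright gene stood highest was uneven. Of the 205 genes above the 70th percentile with at least 2-fold range, non-Tg 1 was highest in 97 (47.3%), non-Tg 2 in 48 and non-Tg 3 in 60. Non-Tg 2 was lowest in 85 and non-Tg 3 in 80. Over all 12682 genes non-Tg 1 was highest in 36.9%. With non-Tg 1 left out, 43 genes were called by the limma variance F test over the remaining 2 mice. Phlda1, Arrdc3, Igfbp1 and Gadd45g were among them, while Mt1 was not. For the genes still called, the mouse farthest from the mean was kept in that run. For Mt1 it was the mouse left out. The run is therefore no test of these calls. Leaving out non-Tg 2 gave 24 genes, and leaving out non-Tg 3 gave 16.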

How the data were processed

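Biotinylated cRNA from 5 µg of liver RNA of each of 3 non-transgenic mice was hybridized to 1 Affymetrix MG 430 2.0 array per mouse, per the labels' protocols. The authors' table, as deposited, gives log2 signals for 45101 probe sets. GCOS is the software in the submitters' processing notes, with no version or summary algorithm in the sources used here. The antilogged signals have a trimmed mean of 500.0 on every array, so the arrays had been scaled. Having 3 arrays limits the precision, and detection calls were not used here.

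GEO's platform annotation named the genes; the 34741 probe sets matched by Entrez number to RefSeq (GRCm38.p6) kept their symbol. Each gene took its probe set of highest mean over the 3 arrays. Excess spread was tested with limma 3.58.1 (R 4.3.3; lmFit with an intercept, eBayes with an intensity trend): residual variance over trended prior variance, against F with 2 and 7.41 degrees of freedom, one-sided, Benjamini-Hochberg adjusted over 12682 genes. The procedure was tested on simulated data. Plots were made with matplotlib 3.10.9.

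Members, the 50 gene lists and the tests were chosen with earlier results of these data known. Named genes are the 25 brightest, the 25 of smallest p with at least 2-fold range, the first members of each list by signal and by spread, all measured members of 7 lists, and the 5 of smallest SD in the top 1000; gene models were passed over. Alternatives were other scalings, constants, filters, probe set rules, variance priors and thresholds, and leaving out each mouse.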

Additional observations from a re-analysis of the deposited data

How the results depend on the processing

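The number of genes called for excess spread (5) depended on the settings. It was 4 after quantile normalization and 5 with 16 or 64 added before the log. It was 19 with each array centred on its median, 18 with a robust prior, 17 at an adjusted p under 0.10, and 10 with probe sets that can detect several transcripts left out, an alternative chosen after seeing the data. It was 0 with the filter at the 70th percentile (391 genes at unadjusted p under 0.05), with the median over a gene's probe sets (665) and without the intensity trend (591), and leaving out 1 mouse gave 16 to 43. The cause was not tested. The median SD (0.221) was 0.184 with 64 added, 0.334 without a filter, 0.159 with the filter at the 70th percentile, and 0.161 to 0.182 without 1 mouse. The 1896 genes with a 2-fold range became 741 with 64 added, 6570 without a filter, 205 with the filter at the 70th percentile, 380 at 4-fold, and 811 to 906 without 1 mouse. Agreement of second probe sets (41.1%) was 43.3% after centring, 38.6% without a filter, 45.4% with the filter at the 70th percentile, and 55.8% to 56.3% without 1 mouse, when 2 mice were left to agree on. The top 100 by signal shared 77 to 100 genes with each alternative run. No paired analysis was possible because a single group was analysed. Groups of 3 limit every spread estimate, and dim genes carry most 2-fold ranges.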
